A study of Mus musculus with 30 samples.

Results

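Retinas of mice carrying a mutant huntingtin transgene, the line labelled R6, were compared with retinas of WT mice. The members are the arrays titled R6 1 to R6 4 and WT 1 to WT 4, which are 8 of the 30 arrays of the series, and the description runs across all genes of the table. All 8 animals were 9 weeks old, an age labelled moderate stage, and all were of the strain given as 75% C57BL/6, 25% CBAJ. Each group held 1 labelled female (array 1) and 3 labelled males. Total RNA of each animal's retina was hybridised to its own array, so that the 4 arrays of a group are 4 animals. The WT animals carry no transgene label, and the R6 animals are labelled only as carrying mutant huntingtin. The promoter of the transgene, the founder line, the repeat length and the hour of collection are not given in the sources used here. A second pair of groups on the same array type served as the reference for what differs between the models: 6 arrays of R7E mice, labelled with mutant ataxin-7, and 6 arrays of R7N mice, labelled with normal ataxin-7, both 9 weeks old and C57BL/6.

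Huntington disease is caused by an expanded CAG repeat in the huntingtin gene, which lengthens a polyglutamine stretch in the protein and gives fragments that gather in the nuclei of neurons. The retina turns light into neural signals in rod and cone photoreceptors. Bipolar cells, horizontal cells and amacrine cells process those signals, and ganglion cells send them to the brain. Rods far outnumber cones in the mouse, and each photoreceptor type has its own set of phototransduction proteins, so transcripts of cone proteins can be followed in whole retina even though cones are few. In whole retina a lower transcript level may reflect fewer cells of a type or less RNA per cell, and these cannot be told apart here.

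The values are array signals scaled by the authors, with a trimmed mean near 100 on each array, and the differences below are log2(R6) minus log2(WT) from a linear model, given ± the standard error. Signals are compared between groups for 1 probe set at a time, never between genes. Of 22626 probe sets that are not controls, 13575 had a mean signal over the arrays above 26.9 and were tested. A probe set was called when its p-value, adjusted over all 13575, was under 0.05. The deposited table gives no detection call, so a signal near or under 26.9 is not shown to lie above background, and a fold difference against such a signal is not exact. Where a gene had several probe sets, the one with the highest mean over the arrays stands for it, and the others are given where their call differed from its own.

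The arrays matched their labels. Xist signals were 1473.7 and 1712 on the 2 arrays labelled female and 19.9 to 36.9 on the other 6, and signals of the Y-linked Eif2s3y ran the other way. Spearman correlations between pairs of the 8 arrays were 0.936 to 0.968. In both groups all 18 rod, 17 amacrine and 16 ganglion cell genes measured had a mean above 26.9. So had 4 of 7 horizontal cell genes, while all 5 measured blood genes were below 26.9 on average in both groups. Lens transcripts differed widely between arrays of one group: the signal of Cryaa, a lens crystallin, was 3378 on R6 array 3, 4640 on WT array 4 and 276 on WT array 1, and at most 14.5 on the other 5. Without R6 array 3 and WT array 4, 25 of the 98 calls of the genes followed by name were lost. These were the falls of Pde6c, Cnga1, Rcvrn, Pde6g, Nrl, Crx, Cabp4, Prkca, Isl1, Tfap2b, Npy, Ebf3, Nefm, Hlf, Drd2, Hey1 and Olfm1 and the rises of Prdm1, C1qb, H2-D1, Ifit3, A2m, Alpk2, Parp12 and Ndufa9. Leaving out R6 array 1 and WT array 1 instead, which keeps labelled males alone, lost 33 of the 98. Both settings use fewer arrays, which by itself can end calls. The pigment epithelium marker Rpe65 had signals of 40.3 to 60.9 in R6 and 65.5 to 79.6 in WT, without a call for any of 12 tested genes of that list, and the part of carried-over tissue in the results was not tested. CBA/J mice are known to carry a recessive retinal degeneration allele of Pde6b and a different haplotype of the major histocompatibility complex from that of C57BL/6. The sources used here do not give the alleles of each animal. The endogenous Htt gene, the mouse counterpart of the transgene, had a mean signal of 95.4 ± 9.59 (SD, n = 4) in R6 and 76.8 ± 15.5 in WT, a difference of 0.33 ± 0.16 that was not called (adjusted p = 0.333). The sources used here do not say if its probe set detects the transgene.

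Across the genome, 525 probe sets were called, 3.87% of those tested, of 422 genes. Of these 355 were lower in R6, 2.62% of those tested, and 170 were higher, 1.25%. Differences of at least 2-fold were found at 71 called probe sets, 54 lower and 17 higher. Over the 8044 genes tested, each by its brightest probe set, 257 fell, 3.19%, and 116 rose, 1.44%, 373 or 4.64% in all, against a median difference of all genes of 0.01. Signals of the 2 groups did not overlap at 851 genes, 10.6% of those tested. Without R6 array 3 and WT array 4 the number of called probe sets was 310, of which 289 were also called with all 8 arrays. Between 365 and 459 were called when 1 array was left out. The number of rises depended most on single arrays, at 110, 106 and 109 without R6 arrays 1, 2 and 3 and 105 without WT array 1.

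Cone transcripts showed the largest losses of all. Of the 8 cone phototransduction genes tested, 6 fell and 0 rose, with a median difference of -1.43. The 3 largest falls called among all genes were the 2 cone opsins and cone arrestin, and in each of these the 4 R6 arrays lay far below the 4 WT arrays.

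Opn1mw, the medium-wavelength cone opsin, had signals of 4.3, 21.8, 10.3 and 47.5 on R6 arrays 1 to 4 and of 686.4, 645.7, 802.9 and 843.7 on WT arrays 1 to 4. Opn1sw, the short-wavelength opsin, gave 36.5, 52.3, 58.4 and 77.8 in R6 and 1191, 1620, 1330 and 1552 in WT. Arr3, the cone arrestin that ends the activity of cone opsins, gave 63.2, 57.1, 92.2 and 76.6 in R6 and 663.1, 597.9, 784.4 and 780.8 in WT. None of these R6 and WT ranges overlapped. The fall was 5.66 ± 0.33 on the log2 scale for Opn1mw (adjusted p = 2.19e-13), where 3 of the 4 R6 signals were under 26.9. For Opn1sw the log2 difference was -4.70 ± 0.15 (adjusted p = 6.89e-21), a mean signal 25.3-fold higher in WT. Arr3 differed by -3.30 ± 0.12 (adjusted p = 2.09e-19), or 9.78-fold. Second probe sets of Opn1sw and Arr3 were called lower as well, at -2.06 and -4.57.

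The transducing and effector genes of cones fell less. Pde6h, the inhibitory subunit of the cone phosphodiesterase, had signals of 224.3, 231.1, 238.5 and 213.6 in R6 and 618.6, 718.8, 622.8 and 623.0 in WT, a difference of -1.51 ± 0.15 (adjusted p = 5.43e-08). Gnat2, the alpha subunit of cone transducin, gave 282.6, 337.8, 311.0 and 295.9 in R6 and 765.2, 802.7, 777.5 and 795.3 in WT, a difference of -1.36 ± 0.12 (adjusted p = 1.86e-09). Neither gene's groups overlapped. Pde6c, the catalytic subunit of the cone phosphodiesterase, gave 76.7, 104.2, 120.2 and 121.4 against 157.0, 175.4, 182.3 and 271.3, a difference of -0.89 ± 0.23 (adjusted p = 0.0222). Its call was lost without R6 array 1, R6 array 2 or WT array 4, with an adjusted p of up to 0.140, and without the arrays highest in lens transcripts. Cngb3, a subunit of the cone cyclic nucleotide channel, differed by -0.21 and was not called. Gnb3, the beta subunit of cone transducin that is also found in ON bipolar cells, had overlapping signals of 637.1 to 846.1 in R6 and 587.1 to 749.4 in WT, and its difference of 0.10 had a 95% confidence half-width of 0.30. Outside the list, Kcne2, an accessory subunit of potassium channels, gave 62.9, 33.1, 22.5 and 46.9 in R6 and 212.0, 225.3, 174.8 and 201.2 in WT. Its difference was -2.39 ± 0.17 (adjusted p = 2.79e-11) and its groups did not overlap.

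**Figure D1:**
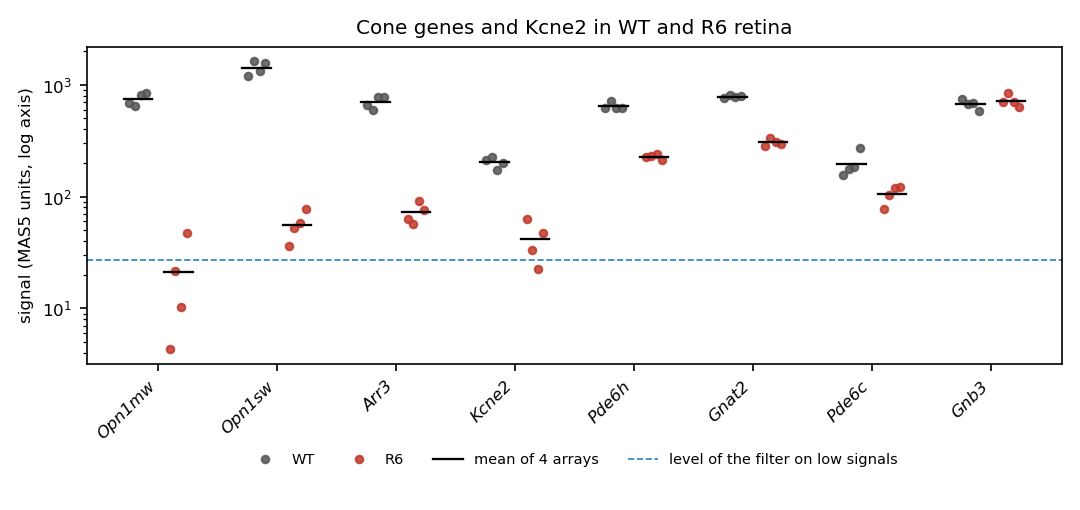
Signals of 7 cone genes and Kcne2 on the 4 WT and 4 R6 arrays (points, log axis in MAS5 units, bars at group means; dashed line, the level of 26.9 used to filter low signals). R6 lies below WT on all arrays for 7 of the genes, down to 4.3 for Opn1mw, and overlaps WT for Gnb3.

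The steep cone losses set R6 apart from the ataxin-7 model. The R7E arrays differed from R7N at 946 of 8044 genes, 11.8%, with 485 higher, 6.03%, and 461 lower, 5.73%, and share no array with the R6 and WT groups. A test of the difference between the 2 effects called 110 probe sets, 0.81%, and 79 genes by their brightest probe set, 0.982%, and 6 of the 8 cone genes were among them. Gnat2 fell by 1.36 in R6 and was higher by 0.99 in R7E than in R7N (difference of the effects -2.35 ± 0.15, adjusted p = 3.92e-12). Pde6c was likewise higher in R7E, by 0.62 (difference of the effects -1.51 ± 0.30, adjusted p = 0.00808). Opn1sw, Arr3 and Pde6h were lower in R7E by 0.47, 0.45 and 0.52 on the log2 scale, and Opn1mw differed by -0.41 without a call. The effects differed by -4.24 ± 0.19 for Opn1sw, -5.25 ± 0.43 for Opn1mw, -2.86 ± 0.15 for Arr3 and -0.99 ± 0.20 for Pde6h. Kcne2, lower by 0.51 in R7E, also differed between the effects, by -1.88 ± 0.22 (adjusted p = 4.1e-06).

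**Figure D2:**
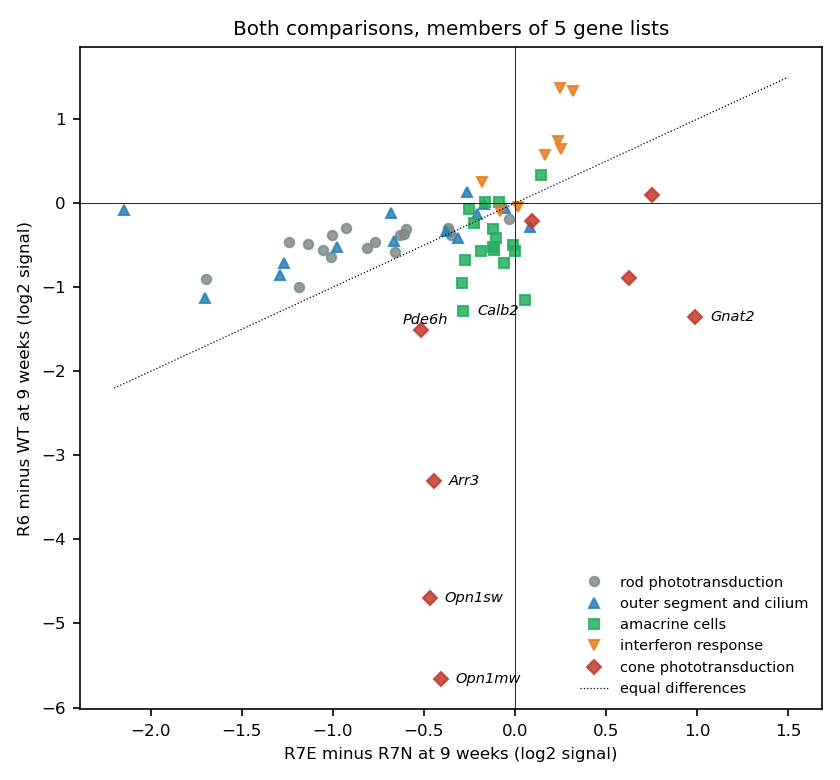
Log2 difference of R6 and WT (vertical axis) against that of R7E and R7N (horizontal axis) at 9 weeks, 1 point for each tested member of 5 gene lists. The dotted line marks equal differences. Opn1mw, Opn1sw and Arr3 lie between -5.66 and -3.30 on the vertical axis and between -0.47 and -0.41 on the horizontal axis, and Gnat2 has opposite signs on the 2 axes.

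Rod transcripts fell more modestly and in parallel. All 18 rod phototransduction genes tested had a negative difference, with a median of -0.42; 7 fell and 0 rose. The number called was 4 without the arrays highest in lens transcripts and 4 with quantile normalization, and 11 in a fit of only the groups compared. The summed signal of the list was 32519 to 36526 on the R6 arrays and 44117 to 48261 on the WT arrays.

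Sag, the rod arrestin, had signals of 4062, 3915, 4738 and 4172 in R6 and 6252, 6750, 5870 and 6404 in WT. Cnga1 and Cngb1 encode the 2 subunits of the rod cyclic nucleotide channel, which closes in light. Cngb1 gave 734.5, 878.2, 991.7 and 858.4 in R6 and 1203, 1069, 1253 and 1246 in WT, and Cnga1 gave 865.7, 994.2, 883.0 and 1097 against 1263, 1360, 1379 and 1631. All 3 had R6 signals wholly below those of WT. Their differences were -0.58 ± 0.13 for Sag (adjusted p = 0.00628), -0.47 ± 0.09 for Cngb1 (adjusted p = 0.00177) and -0.55 ± 0.12 for Cnga1 (adjusted p = 0.00501). The call was lost with quantile normalization for Sag and without the arrays highest in lens transcripts for Cnga1. Rcvrn, which encodes the calcium sensor recoverin, fell by 0.53 ± 0.12 (adjusted p = 0.00899), a call that ended without R6 array 3, without the arrays highest in lens transcripts and with quantile normalization.

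Subunits of rod transducin and of the rod phosphodiesterase were less even. Gnb1, a transducin beta subunit made in many cell types, differed by -0.90 ± 0.18 (adjusted p = 0.00235), but its second probe set by -0.22 without a call. Gngt1, the gamma subunit, differed by -0.64 ± 0.15 (adjusted p = 0.00911), with 2 further probe sets at -0.37 and -0.33 that were not called, and its call ended without R6 array 2 or WT array 2. Pde6g, the inhibitory subunit of the rod phosphodiesterase, differed by -0.37 ± 0.11 (adjusted p = 0.0384), a call lost when any 1 of 7 of the 8 arrays was left out, and its second probe set, at -0.38, was not called. Gnat1, the alpha subunit of rod transducin, differed by -0.31 ± 0.12 without a call (adjusted p = 0.207). Its sign turned to 0.05 with quantile normalization. Pde6b, a catalytic subunit of the phosphodiesterase, had signals of 1703, 1638, 1873 and 2418 in R6 and 2328, 2446, 2535 and 3391 in WT. Its groups overlapped and its difference of -0.49 ± 0.15 was not called (adjusted p = 0.0563). The rhodopsin kinase Grk1 and the guanylate cyclase activator Guca1b differed by -1.0 ± 0.32 and -0.47 ± 0.14, with adjusted p-values of 0.0820 and 0.0537.

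In R7E 16 of the same 18 rod genes were lower than in R7N, with a median of -0.79, and a difference between the 2 effects was called for 1 of the 18, Guca1b (0.77 ± 0.18, adjusted p = 0.0323), a call lost without any 1 of 5 arrays and without the arrays highest in lens transcripts. Of 14 outer segment and cilium genes, 6 fell in R6 and 0 rose (median -0.31), and 9 were lower in R7E; without R6 array 4, 3 fell in R6. Reep6, needed for membrane traffic in rods, had signals of 1534, 1675, 1651 and 1307 in R6 and 2839, 3752, 3389 and 3523 in WT. Rdh12, a retinal reductase of photoreceptors, gave 797.7, 923.0, 841.9 and 813.3 against 1551, 1501, 1509 and 1533, and Rom1, a structural protein of outer segment disc rims, gave 2109, 2108, 2059 and 1953 against 3577, 3431, 3250 and 3230. The groups of all 3 were apart. The differences were -1.13 ± 0.16 for Reep6 (adjusted p = 2.03e-05), -0.85 ± 0.12 for Rdh12 (adjusted p = 2.27e-05) and -0.71 ± 0.12 for Rom1 (adjusted p = 0.00039). Tulp1 and Unc119, which act in protein transport to the outer segment, and Abca4, a retinoid transporter of disc rims, fell by 0.45, 0.33 and 0.41, and each lost its call without at least 1 single array. Prom1, which shapes discs, differed by -0.11 ± 0.11 and was not called, against -0.68 in R7E (difference of the effects 0.57 ± 0.14, adjusted p = 0.0425). That difference was no longer called without any 1 of 7 of the 8 arrays or without those highest in lens transcripts.

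Regulators of the photoreceptor programme fell in part. Of 12 photoreceptor transcription factor genes tested, 4 fell and 1 rose, with a median of -0.12; 2 fell without R6 array 1, and 2 fell and 0 rose without the arrays highest in lens transcripts. Samd11, a photoreceptor corepressor, had signals of 499.7, 596.5, 602.2 and 603.2 in R6 and 1282, 1070, 1345 and 1197 in WT, a difference of -1.09 ± 0.17 (adjusted p = 0.000101). Esrrb, a nuclear receptor needed by rods, gave 489.8, 523.3, 385.0 and 370.6 against 832.3, 884.0, 665.7 and 718.4 (-0.82 ± 0.15, adjusted p = 0.000717), while its second probe set, at -0.84, was not called. Neither gene's groups overlapped. Nrl, which sets rod identity, had signals of 3186, 2966, 3507 and 3007 in R6 and 4239, 4662, 4639 and 4645 in WT (-0.52 ± 0.14, adjusted p = 0.0219). The Nrl call was lost when any 1 of 6 of the 8 arrays was left out and without the arrays highest in lens transcripts. Crx, the homeobox factor of rods and cones, gave 728.0, 1014, 1038 and 1134 against 1239, 1199, 1397 and 1412 (-0.44 ± 0.10, adjusted p = 0.0112). The lowest R6 value was on array 1, and without it the adjusted p was 0.101; a second Crx probe set was called at -0.54. Prdm1, which steers photoreceptor precursors away from the bipolar fate, rose by 0.44 ± 0.11 (adjusted p = 0.0187), a call that was also lost without R6 array 1, and without WT array 3 or 4. Otx2, upstream of Crx, differed by 0.31 ± 0.10 and was not called. Mef2c, a factor of photoreceptor gene expression, differed by -0.69 ± 0.22 without a call at its brightest probe set, while 3 of its 4 other probe sets were called, at -0.68, -0.88 and -1.03.

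Upstream sequences of fallen photoreceptor genes were searched for TAATCC, letters of the class that CRX and related homeobox factors bind. The search covered both strands of the 250 bases before the transcript start in the RefSeq table of GRCm38.p6. TAATCC was found in 2054 of 32851 windows of that length, 6.25%. Of the 7 rod genes called lower, 5 had a window in the table and 4 of these held TAATCC, namely Sag, Cngb1 with 2 matches, Cnga1 and Gngt1. Of the 6 fallen cone genes 5 had a window and 1 held TAATCC, that of Gnat2. The 4 fallen transcription factor genes all had windows, with 5 windows in all, and 2 genes held the letters, Crx and Samd11. Of the 6 fallen outer segment and cilium genes 5 had windows, 7 in all, and TAATCC was in 2 of the 7. The letters TAATTA occurred in 4.84% of all windows, in 0 of the 5 rod and 0 of the 5 transcription factor windows, in 1 of the 5 cone windows and in 1 of the 7 outer segment windows. TGCTGA, letters of the class bound by NRL, occurred in 16.1% of all windows, in 1 of 5 rod, 1 of 5 cone and 1 of 5 transcription factor windows, and in 2 of the 7 outer segment windows. The 4 rod windows are shown with that of Gnat2 and, for the cone gene with the smallest adjusted p, that of Opn1sw, which lies at chr6:29380514-29380763 on the minus strand and holds no TAATCC. Gnat2 is at chr3:108092816-108093065 (plus), Sag at chr1:87803430-87803679 (plus), Cngb1 at chr8:95306586-95306835 (minus), Cnga1 at chr5:72642753-72643002 (minus) and Gngt1 at chr6:3993758-3994007 (plus). Each is written 5′ to 3′ on the strand of its gene, with TAATCC or its reverse complement GGATTA in capitals.
Opn1sw: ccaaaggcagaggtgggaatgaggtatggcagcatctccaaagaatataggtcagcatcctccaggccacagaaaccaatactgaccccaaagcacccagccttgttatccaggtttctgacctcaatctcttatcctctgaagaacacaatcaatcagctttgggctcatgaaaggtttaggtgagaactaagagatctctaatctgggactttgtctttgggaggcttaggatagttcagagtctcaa
Gnat2: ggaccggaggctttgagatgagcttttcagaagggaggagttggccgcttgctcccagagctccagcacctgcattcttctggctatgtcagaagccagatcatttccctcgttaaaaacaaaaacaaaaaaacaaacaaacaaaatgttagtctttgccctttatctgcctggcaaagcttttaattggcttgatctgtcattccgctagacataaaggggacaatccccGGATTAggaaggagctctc
Sag: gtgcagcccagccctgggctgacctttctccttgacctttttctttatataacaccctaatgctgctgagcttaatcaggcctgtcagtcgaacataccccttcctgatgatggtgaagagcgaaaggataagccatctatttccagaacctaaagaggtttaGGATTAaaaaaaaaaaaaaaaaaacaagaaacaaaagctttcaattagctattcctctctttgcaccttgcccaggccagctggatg
Cngb1: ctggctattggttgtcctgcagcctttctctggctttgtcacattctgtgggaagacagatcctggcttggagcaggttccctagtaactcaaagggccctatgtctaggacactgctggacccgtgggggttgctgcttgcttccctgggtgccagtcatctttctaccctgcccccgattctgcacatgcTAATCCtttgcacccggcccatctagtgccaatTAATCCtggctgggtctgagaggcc
Cnga1: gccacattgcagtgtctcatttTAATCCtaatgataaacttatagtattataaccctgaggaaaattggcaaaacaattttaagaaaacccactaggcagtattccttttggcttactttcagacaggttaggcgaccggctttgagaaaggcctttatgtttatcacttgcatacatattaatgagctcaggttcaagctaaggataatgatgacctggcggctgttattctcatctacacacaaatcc
Gngt1: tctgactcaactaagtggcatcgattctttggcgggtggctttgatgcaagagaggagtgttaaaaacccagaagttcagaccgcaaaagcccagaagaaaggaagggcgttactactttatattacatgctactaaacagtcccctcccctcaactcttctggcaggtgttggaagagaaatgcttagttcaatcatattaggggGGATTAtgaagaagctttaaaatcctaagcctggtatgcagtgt
A match describes these letters only, and binding was not measured. Photoreceptor genes that did not fall were not searched, so the shares cannot link the letters to the falls.

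Of 13 genes tested on the photoreceptor and ribbon synapse list, 3 fell and 0 rose (median -0.16). Rabgef1, an exchange factor for Rab proteins, had signals of 190.5, 191.4, 214.2 and 175.6 in R6 and 324.2, 440.7, 361.2 and 371.6 in WT (-0.95 ± 0.15, adjusted p = 0.00017), with both other probe sets called lower. Cacna1f, the pore subunit of the calcium channel at rod and cone terminals, gave 327.0 to 367.0 in R6 and 432.5 to 509.2 in WT (-0.46 ± 0.10, adjusted p = 0.00303). Cabp4, which tunes that channel, gave 270.1 to 361.8 against 456.8 to 559.7 (-0.68 ± 0.18, adjusted p = 0.0222), a call lost when any 1 of 5 arrays was left out. Its fall was smaller than that of 1.75 in R7E (difference of the effects 1.07 ± 0.23, adjusted p = 0.0178), a difference not called without R6 array 1 or without the arrays highest in lens transcripts. All 3 had R6 signals wholly below WT. Kcnj14, an inward rectifier potassium channel, fell by 0.68 ± 0.14 (adjusted p = 0.00371) and by 1.49 in R7E.

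Lists of inner retinal genes held falls in R6 as well. Of 17 amacrine cell genes tested 9 fell and 0 rose, with a median of -0.53, and between 6 and 8 fell when 1 array was left out, with 5 in labelled males alone and 5 in a fit of only the groups compared. Of 12 bipolar cell genes 5 fell and 0 rose (median -0.32), of 4 horizontal cell genes 2 fell (median -0.46), and of 16 ganglion cell genes 8 fell (median -0.43). Differences were positive for 3 amacrine, 3 bipolar, 0 horizontal and 2 ganglion cell genes. Uncalled Scgn of the bipolar list had signals of 320.9 to 373.9 in R6 and 281.3 to 306.9 in WT. Uncalled Gap43 of the ganglion list gave 95.3 to 114.9 against 79.2 to 93. The horizontal cell genes Lhx1, Onecut1 and Gja10 were too dim to be tested. In R7E against R7N, 1 amacrine, 0 bipolar, 0 horizontal and 8 ganglion cell genes were lower and 0 were higher. The bipolar count was 2 without WT array 2, 3 without R6 array 2 or 3 or WT array 1 or 3, and 3 without the arrays highest in lens transcripts. The lists share members: Isl1 stands among bipolar and ganglion cell genes, and Prox1 among amacrine and horizontal cell genes.

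Calb2 encodes calretinin, a calcium-binding protein of amacrine and ganglion cells. Its signals were 594.4, 500.0, 612.0 and 749.1 in R6 and 1726, 1439, 1441 and 1337 in WT, and the groups were far apart (-1.28 ± 0.10, adjusted p = 3.5e-10). Gad1, an enzyme that makes GABA, gave 378.7, 310.4, 343.8 and 349.6 in R6 and 535.4, 630.2, 562.8 and 479.8 in WT (-0.67 ± 0.15, adjusted p = 0.00573), with its second probe set called at -0.58. Tfap2a and Tfap2b, amacrine transcription factors, fell by 0.71 ± 0.17 and 0.57 ± 0.14, and Pax6, a homeobox factor kept on in the inner retina, by 0.53 ± 0.13. These 3 calls were each lost without at least 1 single array, although 2 further probe sets of Pax6 were called, at -0.87 and -0.77. The second probe set of Tfap2a, at -0.12, was not called (adjusted p = 0.903). Slc6a9, the glycine transporter, differed by -0.50 ± 0.14 (adjusted p = 0.0297), but its groups overlapped and its call was lost when any 1 of 5 arrays was left out.

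Transcripts of several peptide precursors were among those that fell. They form no list of their own and were brought together after their values were seen, and Sst, the somatostatin precursor in the amacrine list, was not called, with signals of 19.2 to 47 in R6 and 45.5 to 50.3 in WT. Vip had signals of 33.2, 30.9, 25.7 and 36.8 in R6 and 86.0, 73.1, 51.5 and 73.2 in WT (-1.15 ± 0.19, adjusted p = 0.000281). Tac1, the precursor of substance P, gave 56.7, 47.1, 48.9 and 57 against 82.7, 92.0, 99.1 and 137.1 (-0.95 ± 0.17, adjusted p = 0.000506). Tac2, the precursor of neurokinin B, gave 71.5, 64.3, 68.1 and 67.8 against 200.6, 186.6, 181.0 and 202.5 (-1.50 ± 0.12, adjusted p = 7.38e-10). In all 3 every R6 array was below every WT array. Npy, the precursor of neuropeptide Y, fell by 0.56 ± 0.14 (adjusted p = 0.013), a call lost without R6 array 3 or WT array 2. Cartpt is a peptide precursor found in a class of retinal ganglion cells, and Ngfr, the low-affinity neurotrophin receptor, is likewise named after its values were seen. Cartpt had signals of 211.5 to 289.1 in R6 and 564.7 to 620.0 in WT (-1.30 ± 0.13, adjusted p = 2.51e-08). Ngfr had signals of 58.0 to 111.0 in R6 and 166.8 to 208.2 in WT (-1.18 ± 0.15, adjusted p = 4.5e-06), while its dimmer second probe set was not called. Among these precursors the effects of R6 and R7E differed for Vip (-1.21 ± 0.25, adjusted p = 0.0125, but not without the arrays highest in lens transcripts), Tac2 (-1.25 ± 0.16, adjusted p = 1.75e-05) and Cartpt (-1.16 ± 0.16, adjusted p = 6.56e-05). For Calb2 they differed by -0.996 ± 0.13 (adjusted p = 3.03e-05) and for Ngfr by -1.18 ± 0.19 (adjusted p = 0.000682).

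Among bipolar cell genes, Cabp5, a calcium-binding protein, had signals of 353.4, 328.8, 277.1 and 275.6 in R6 and 635.7, 540.9, 538.8 and 453.6 in WT (-0.81 ± 0.12, adjusted p = 5.72e-05). Pcp2, a modulator of G proteins in ON bipolar cells, gave 672.2, 665.0, 585.0 and 591.9 against 1051, 987.4, 1082 and 1043 (-0.73 ± 0.14, adjusted p = 0.00161), with 2 further probe sets called at -0.95 and -0.94. Both genes had groups that did not overlap. Prkca, the protein kinase of rod bipolar cells, Sebox, a homeobox gene, and Isl1, a homeobox factor of ON bipolar and ganglion cells, fell by 0.57, 0.71 and 0.38. Their calls were lost without any 1 of 5, 2 and 6 arrays in the same order, and the second probe set of Isl1, at -0.35, was not called. Of the horizontal cell list, Calb1, the calcium-binding protein calbindin, had signals of 166.8, 213.9, 226.1 and 208.0 in R6 and 370.9, 332.8, 328.4 and 316.2 in WT (-0.73 ± 0.09, adjusted p = 7.89e-06). Septin4, a cytoskeletal GTPase, gave 326.5 to 395.3 against 486.6 to 611.4 (-0.61 ± 0.09, adjusted p = 5.17e-05), with a second probe set not called. The effects of R6 and R7E differed for Cabp5, Calb1 and Septin4, by -0.76 ± 0.16, -0.61 ± 0.12 and -0.65 ± 0.12, of which the first was lost with median centring. The Calb1 difference was lost without R6 array 1, in labelled males alone and with the replicate number as a block.

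Ganglion cell genes fell in part in each model, with 5 of the 16 called lower in both: Nefl, Thy1, Slc17a6, Ebf3 and Nefm. Nefl, the light neurofilament chain of axons, had signals of 942.9, 930.5, 768.4 and 965.3 in R6 and 1391, 1281, 1247 and 1268 in WT (-0.53 ± 0.10, adjusted p = 0.00129), and differed by -0.28 in R7E, also called. Rbpms, an RNA-binding protein that marks ganglion cells, gave 30.5 to 42.0 in R6 and 55.5 to 79.3 in WT (-0.88 ± 0.17, adjusted p = 0.00111). Chrna6, a nicotinic receptor subunit, gave 73.9 to 113.3 against 162.7 to 182.4 (-0.88 ± 0.13, adjusted p = 4.34e-05), with a second probe set called at -1.17. The groups of these 3 genes were apart. A second Rbpms probe set, at -0.99, was not called (adjusted p = 0.0618). In R7E neither Rbpms, at -0.33, nor Chrna6, at -0.19, was called. The effects on Chrna6 differed by -0.69 ± 0.17 (adjusted p = 0.0399), a call lost without any 1 of 7 arrays. Thy1, a surface glycoprotein of ganglion cells, fell by 0.43 ± 0.10 (adjusted p = 0.00941) with overlapping groups. Slc17a6, a vesicular glutamate transporter, fell by 0.55 ± 0.13, also with overlapping groups, of 89.7 to 114.8 in R6 and 101.9 to 178.2 in WT. Both calls were lost without WT array 2, and the second probe set of Slc17a6, at -0.46, was not called. Ebf3, a transcription factor, fell by 0.51 ± 0.14, a call lost without any 1 of 3 arrays, and its other probe sets, at -0.32 and -0.19, were not called. Nefm, the middle neurofilament chain, fell by 0.43 ± 0.13 (adjusted p = 0.0495), a call lost without any 1 of 7 arrays. Of the 16 genes 4 were called lower without WT array 2, 5 without R6 array 3 or WT array 3, 5 without the arrays highest in lens transcripts, 4 with median centring and 3 in a fit restricted to the groups compared.

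**Figure D3:**
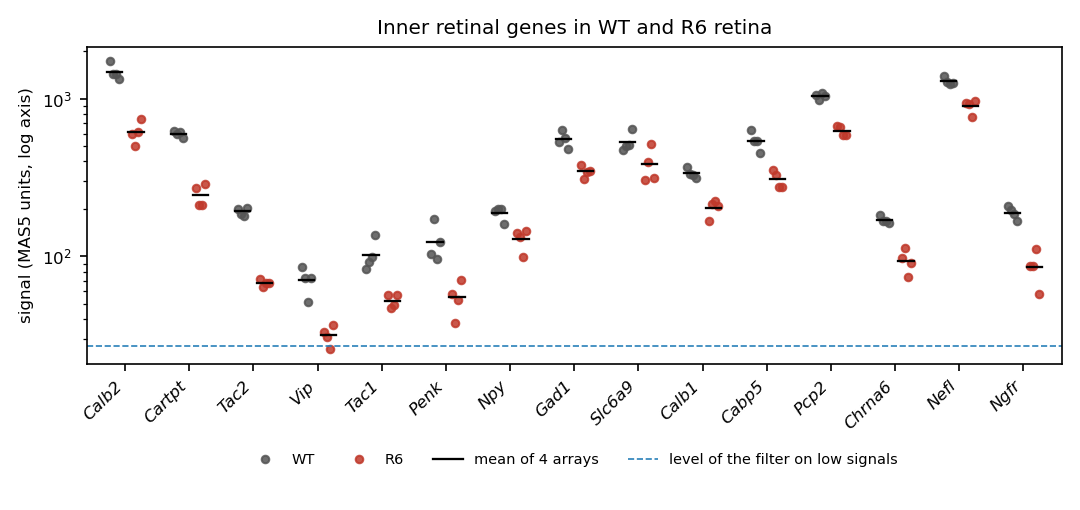
Signals of 15 inner retinal genes on the 4 WT and 4 R6 arrays (points, log axis in MAS5 units, bars at group means; dashed line at 26.9). R6 lies below WT on all arrays for 14 of the genes, as for Tac2 with 64.3 to 71.5 against 181.0 to 202.5, and overlaps WT for Slc6a9.

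Genes known to be lowered in the striatum of Huntington models were partly lower in the R6 retina. Of 13 such genes tested 5 fell and 0 rose, with a median of -0.33. Penk, the enkephalin precursor, had signals of 57.7, 37.7, 53.0 and 71.3 in R6 and 103.3, 171.8, 96.2 and 122.8 in WT (-1.17 ± 0.26, adjusted p = 0.00525). Rgs4, a regulator of G protein signalling, gave 83.8, 48.0, 71.6 and 104.3 against 143.9, 138.2, 152.2 and 160 (-1.0 ± 0.15, adjusted p = 6.35e-05), with 2 further probe sets called at -1.20 and -1.27. Rasd2, which encodes the striatal GTPase Rhes, gave 49.8, 66.2, 67.9 and 64.4 against 142.0, 103.5, 137.8 and 104.9 (-0.97 ± 0.14, adjusted p = 5.72e-05). None of these groups overlapped. A second Rasd2 probe set showed no such difference, at -0.12 (adjusted p = 0.936) and near the filter level, with mean signals of 33.6 and 33.7. Drd2, a dopamine receptor, fell by 0.50 ± 0.12 (adjusted p = 0.0167), a call lost when any 1 of 3 arrays was left out, and Tac1 is the fifth. The other 8 ranged from -0.34 for Ppp1r1b, the phosphatase inhibitor DARPP, to 0.02 for Pde1b, a phosphodiesterase, and were not called. In R7E against R7N, 1 of the 13 was higher and 0 were lower, with a median of -0.22. A difference between the 2 effects was called for 2 of the 13. Of the 5 that fell, Rasd2 was called (adjusted p = 0.0485). That call was lost with median centring, quantile normalization, log2(signal + 16), no filter, no trend and a replicate block. It was also lost in a fit of only the groups compared, in labelled males alone and without the arrays highest in lens transcripts. Leaving out any 1 R6 array, WT array 1 or WT array 3 ended the Rasd2 call too. For Penk, Rgs4, Drd2 and Tac1 the difference was not called (adjusted p = 0.413, 0.0528, 0.737 and 0.209). These falls are therefore not firmly shown to be particular to R6.

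Of 14 circadian clock genes 3 fell and 0 rose (median -0.21). Dbp, a clock-driven transcription factor, had signals of 244.6, 264.6, 239.9 and 264.0 in R6 and 497.7, 546.0, 401.8 and 410.3 in WT (-0.86 ± 0.11, adjusted p = 9.93e-06), and its second probe set was called at -0.81. Per3, a period gene of the clock itself, gave 87.1 to 133.0 against 168.3 to 204.3 (-0.78 ± 0.19, adjusted p = 0.0117), a call lost without R6 array 4, and its second probe set, at -0.58, was not called. Hlf, a relative of Dbp, fell by 0.34 ± 0.09, a call lost when any 1 of 7 arrays was left out. The R6 and R7E effects on Dbp differed by -0.74 ± 0.15 (adjusted p = 0.00782). Without R6 array 4 only Dbp of the 3 was called. These transcripts cycle over the day, and the part of the hour of collection was not tested.

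Rises included glial, antigen presentation and interferon-linked genes, which 4 lists cover with 14 of the 116 genes that rose. Of 10 gliosis and injury genes 3 rose and 0 fell (median 0.59), of 6 complement and antigen presentation genes 4 rose (median 0.73), of 8 interferon response genes 5 rose (median 0.61), and of 9 microglia and macrophage genes 2 rose (median 0.35). In R7E against R7N, 1 gliosis gene was higher and 1 lower, and 0 of the other 23 were called in either direction. The test of the difference between the 2 effects called 1 gliosis gene, Edn2, and 0 of the other 23. These rises are therefore not shown to be particular to R6. The antigen presentation count was 2 without R6 array 2 or WT array 1 and 1 in labelled males alone, where the interferon count was 3.

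The largest rise was that of Fabp7, the brain fatty acid binding protein of radial and Müller glia, with signals of 108.2, 80.4, 40.2 and 48.5 in R6 and 13.7, 15.7, 14.3 and 3.0 in WT (2.69 ± 0.46, adjusted p = 0.000326). Its WT signals were all under 26.9, so the fold is not exact. Fabp7 was higher in R7E than in R7N too, by 3.84. Gfap, the intermediate filament that Müller glia and astrocytes raise in retinal injury, had signals of 106.2, 139.1, 99.0 and 109.2 in R6 and 57.9, 40.8, 54.7 and 56.9 in WT (1.11 ± 0.20, adjusted p = 0.000632), with a second probe set called at 1.27. Stat3, a transcription factor of that response, gave 301.3, 372.9, 377.2 and 252.9 against 164.7, 176.7, 193.1 and 162.0 (0.89 ± 0.13, adjusted p = 3.51e-05), while its dim second probe set, at 0.72, was not called. All 3 genes had groups that were apart. Stat3 was also higher in R7E, by 0.73, whereas Gfap differed there by 0.27 without a call; a difference between the effects on Gfap was not called (0.84 ± 0.26, adjusted p = 0.158). A2m, a protease inhibitor, rose by 0.69 ± 0.19 (adjusted p = 0.0352), a call lost when any 1 of 6 arrays was left out. The Müller glia list as a whole had a median of 0.02, with 1 of 18 genes higher and 1 lower. The rise was Crym, which encodes mu-crystallin, at 0.67 ± 0.13, and the fall was Slc6a6, the taurine transporter, at -0.69 ± 0.12, with 2 other probe sets at -0.96 and -0.64 that were not called.

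B2m, the light chain of class I major histocompatibility molecules, had signals of 408.3, 571.0, 284.4 and 398.3 in R6 and 164.9, 199.4, 183.2 and 189.9 in WT (1.13 ± 0.22, adjusted p = 0.00147), with a second probe set called at 1.20. H2-K1, a class I heavy chain, gave 455.9, 322.0, 260.4 and 173.1 against 98.4, 131.3, 114.9 and 153.0 (1.22 ± 0.25, adjusted p = 0.00246). H2-D1, another heavy chain, gave 520.1, 286.3, 235.2 and 209.0 against 162.0, 206.2, 206.7 and 154.5 (0.69 ± 0.20, adjusted p = 0.0372). The groups of the 3 genes were apart, by a narrow margin for H2-D1, which lost its call without R6 array 1 or any 1 of 3 other arrays and whose second probe set, below 26.9 in both groups, was not called. The H2-K1 call was lost in labelled males alone. Near-identical class I genes can share these probe sets, so which of them changed is uncertain. Serping1, the inhibitor of the first complement component, rose by 0.76 ± 0.18 (adjusted p = 0.0124), a call lost when any 1 of 3 arrays was left out. Ifit1 and Oasl2, induced by interferon, had signals of 35.2, 66.5, 45.5 and 55.7 and of 61.4, 71.8, 34.0 and 49.1 in R6, and WT signals of at most 26.1 and 25.2. They rose by 1.37 ± 0.29 and 1.34 ± 0.25 (adjusted p = 0.00429 and 0.000989), with WT at or under the filter level. Ifitm3, an antiviral membrane protein, gave 180.4, 210.1, 134.3 and 148.4 against 87.8, 112.3, 88.4 and 111.3 (0.74 ± 0.16, adjusted p = 0.00426), a call lost in labelled males alone. Ifit3 rose by 0.57 ± 0.13 with groups apart, but was not called without the arrays highest in lens transcripts or in labelled males alone. Irf9, a transcription factor of the interferon pathway, rose by 0.64 ± 0.16 with groups that overlapped, a call lost without any 1 of 5 arrays. Irf7, Stat2 and Irf1 of the same list differed by 0.25, -0.05 and -0.09 and were not called.

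The levels in all 4 groups at 9 weeks are given beside these rises. For all 14 called genes of the 4 lists WT had the lowest mean signal, and R7N, which carries normal ataxin-7 on C57BL/6, was above WT. That WT lies below R6 is fixed by the choice of rises, and over all 116 genes that rose WT was lowest of the 4 groups at 96 and below R7N at 98. B2m had a mean of 416 ± 118 (SD, n = 4) in R6, 184 ± 14.6 in WT, 366 in R7N and 416 in R7E. H2-K1 had means of 303, 124, 321 and 483 in the same order, Ifit1 of 50.7, 19.9, 37.2 and 46.8, and Gfap of 113, 52.6, 88.8 and 108. Strain and line cannot be told apart between the R7N and WT groups. Among the falls, that R6 lies below WT is fixed by the choice as well. The 6 called cone genes and the 9 called amacrine genes were lowest in R6 of the 4 groups. So were 7 of the 8 called ganglion cell genes, 0 of the 7 called rod genes and 173 of all 257 genes that fell.

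Microglia are a source of complement and lysosomal transcripts in retina. Ctss, a lysosomal protease, had signals of 97.7, 107.7, 83.8 and 93.2 in R6 and 78.6, 62.5, 48.1 and 58.5 in WT (0.64 ± 0.15, adjusted p = 0.00728), with groups apart. C1qb, a chain of complement C1q, rose by 0.78 ± 0.21 (adjusted p = 0.0314), a call lost when any 1 of 6 arrays was left out, and its second probe set, at 0.80, was not called. The count of this list was 1 without R6 array 1, 2 or 3 or WT array 2 or 3 and without the arrays highest in lens transcripts. The defining microglial genes Cx3cr1 and Aif1 had signals under 26.9 on all 8 arrays, and Csf1r, at 119.1 to 159.4 in R6 and 91.5 to 117.8 in WT, was not called (0.35, adjusted p = 0.187). The summed signal of 17 microglia and macrophage genes was 539 to 616 in R6 and 425 to 549 in WT, and its part in the rises was not tested.

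**Figure D4:**
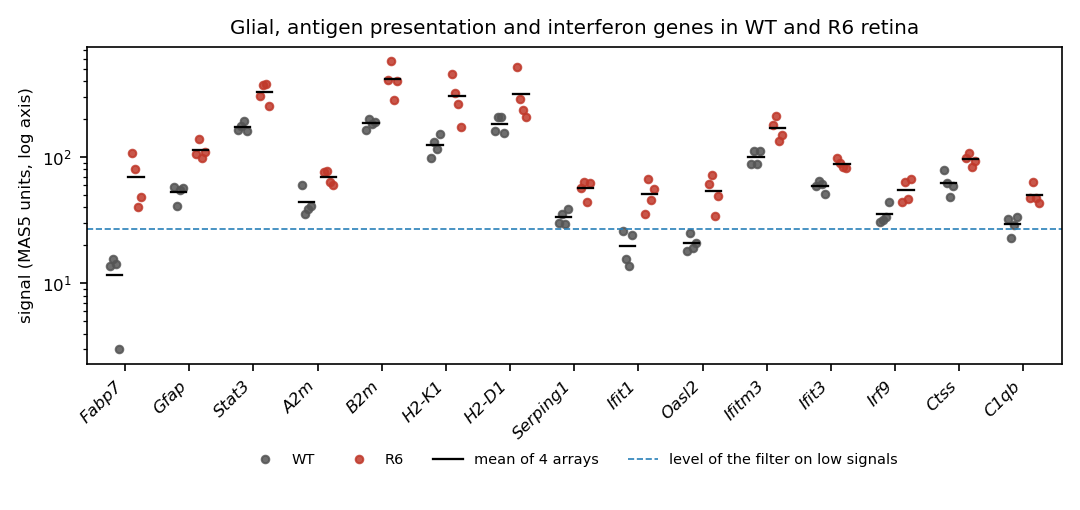
Signals of 15 glial, antigen presentation, interferon and microglial genes on the 4 WT and 4 R6 arrays (points, log axis in MAS5 units, bars at group means; dashed line at 26.9). R6 lies above WT on all arrays for 14 of the genes and overlaps WT for Irf9; the WT signals of Fabp7, Ifit1 and Oasl2 are all below the dashed line.

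Other large rises were shared with R7E. Akr1b8, an aldo-keto reductase, had signals of 92.8, 82.6, 86.3 and 135.4 in R6 and 44.3, 28.4, 27.2 and 32.2 in WT (1.59 ± 0.25, adjusted p = 0.000103), and was higher by 1.42 in R7E. Abca1, the cholesterol exporter, gave 191.2, 241.8, 190.0 and 269.3 against 99.5, 90.2, 63.7 and 63.2 (1.51 ± 0.18, adjusted p = 3.01e-06), and was higher by 0.95 in R7E. Neither gene's groups overlapped. Irgm1, an interferon-inducible GTPase, Parp12, an interferon-inducible ADP-ribosyltransferase, and Msrb2, a methionine sulfoxide reductase, rose by 1.17, 1.09 and 1.37 from WT means under 26.9, and by 0.85, 1.13 and 1.27 in R7E. The Parp12 call was lost without WT array 1. The groups of Msrb2 overlapped, with a lowest R6 signal of 23.3 and a highest WT signal of 23.4, and its call was lost without R6 array 1 or WT array 1. Bub1b, a kinase of the mitotic checkpoint, rose by 0.97 ± 0.22 (adjusted p = 0.00664) and by 0.87 in R7E, as the 1 called member of 13 cell cycle genes. Among all genes called higher in R6, 43 of 116 were also called higher in R7E, which is 37.1% of the R6 list and 8.87% of the 485 in R7E. Among those called lower, 122 of 257 were shared, 47.5% of the R6 list and 26.5% of the 461 in R7E.

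Other large falls came from genes of several roles. Gpsm3, a modulator of G protein signalling, had signals of 70.4, 71.2, 61.5 and 96.1 in R6 and 186.2, 176.5, 206.0 and 182.8 in WT (-1.35 ± 0.16, adjusted p = 2.18e-06), and differed by -1.21 in R7E. Fndc1, a fibronectin-domain protein, gave 38.9, 29.3, 32.1 and 48.9 against 121.8, 93.7, 119.1 and 113.8 (-1.61 ± 0.27, adjusted p = 0.000281), and differed by -1.38 in R7E. In both genes the groups were apart. Csrp3, a muscle LIM protein, fell by 1.41 ± 0.28, to R6 signals under 26.9. Optc, an extracellular matrix protein of the vitreous made by the ciliary body, fell by 2.17 ± 0.44 from uneven WT signals of 25.7, 69.3, 17 and 29.1, with R6 signals of 2.7 to 15.8. Gpx3, a secreted glutathione peroxidase, gave 29.9, 21.2, 137.3 and 115.3 in R6 and 144.0 to 251.9 in WT (-1.62 ± 0.37, adjusted p = 0.0075), and its call was lost without R6 array 1 or 2. Xiap, an inhibitor of caspases, had signals of 622.1 to 665.3 in R6 and 928.1 to 993.2 in WT (-0.60 ± 0.10, adjusted p = 0.000225), the 1 called member of 11 apoptosis genes, and differed by -0.88 in R7E. Its 2 dimmer probe sets, at -0.88 and -1.08, were not called.

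Protein quality control genes stayed uncalled. Of 20 heat shock and chaperone genes, 18 endoplasmic reticulum stress genes, 26 proteasome genes and 17 autophagy and ubiquitin genes, 0 were called in R6 by limma, with medians of 0.04, 0.01, 0.10 and 0.03. At an unadjusted p under 0.05 there were 4, 3, 3 and 1 in the same order. Of the 26 proteasome genes 22 had a positive difference. In R7E 5 of the 18 endoplasmic reticulum stress genes were higher than in R7N. Of 20 huntingtin interactors and transcription cofactors and 17 members of the SAGA complex and partners of ataxin-7, 0 were called in R6 by limma, and 4 and 2 had an unadjusted p under 0.05. A missing call at 4 arrays a group does not show that these genes were the same in both groups.

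**Figure D5:**
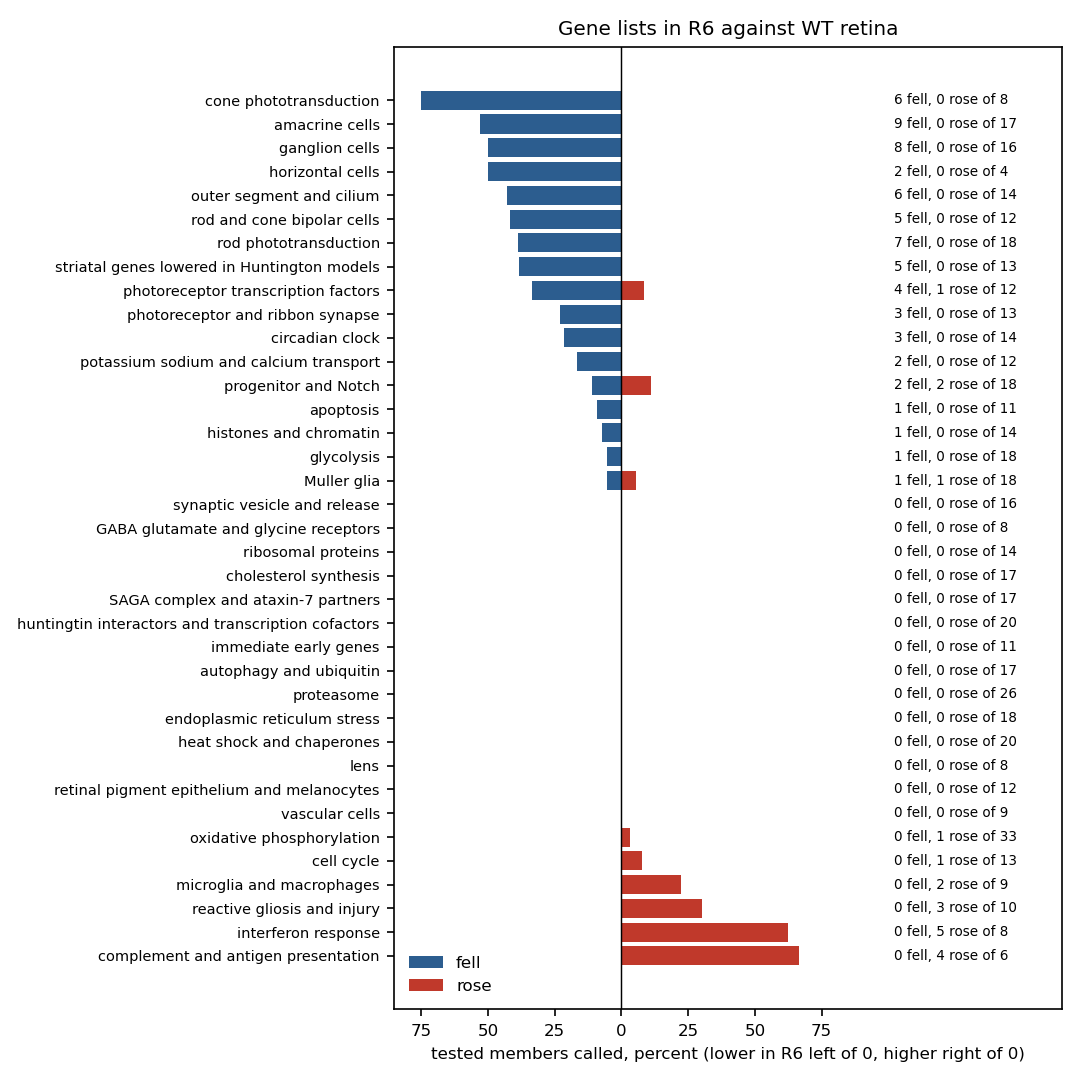
Share of tested members called in R6 against WT for each gene list with at least 4 tested members (horizontal axis in percent, falls to the left of 0 and rises to the right, with counts at the right). Cone phototransduction has the highest share of falls, 6 of 8, and complement and antigen presentation the highest share of rises, 4 of 6.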

How the data were processed

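The 8 arrays measured total RNA of mouse retina on 22690 Affymetrix probe sets. The authors deposited 1 linear signal intensity per probe set and array, made with MAS5 per the submitters' processing notes, with no version and no detection calls. The depth of an array is not defined as reads are, and the number of arrays limits the precision. Probe sets were named through the platform annotation, with symbols updated by gene ID through RefSeq: 20380 had 1 gene, 691 several and 1555 none, and 64 controls were left out. Signals were floored at 3.2, the 10th percentile, and converted to log2. Probe sets with a mean log2 over the 30 arrays above the 40th percentile, a signal of 26.9, were tested, and 0.014% of tested values lay at the floor. limma 3.58.1 in R 4.3.3 fitted 6 groups and labelled sex on all 30 arrays (23 residual degrees of freedom), with an empirical Bayes trend and Benjamini-Hochberg adjustment over 13575 probe sets, and was tested on simulated data. Named genes were the 12 largest rises and falls, up to 3 called members of each of 39 gene lists, members of the photoreceptor lists, Htt, Atxn7 and the 8 largest differences of effects in each direction, or a subset of these. Further called members of the amacrine, ganglion, bipolar, interferon, antigen presentation, striatal and Notch lists, uncalled members of lists outside the photoreceptor ones, and markers were named after their values were seen. The members, lists and rules were chosen with earlier results of these data known. Alternatives were median centring, quantile normalization, log2(signal + 16), other filters, no trend, no sex term, a replicate block, fewer groups and fewer arrays. Arrays of the 3-week groups entered only the spread.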

Additional observations from a re-analysis of the deposited data

Results flagged for a closer look

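The R6 effect, against WT, and the R7E effect, against R7N, differed for 26 of the 110 named genes in the test of the difference itself (limma, Benjamini-Hochberg). The 2 pairs of groups also differ in strain and in the kind of control, which cannot be told apart from the mutant proteins here. In 6 cone genes and Kcne2 the R6 effect minus the R7E effect was negative on the log2 scale: -5.25 for Opn1mw, -4.24 for Opn1sw, -2.86 for Arr3, -2.35 for Gnat2, -1.88 for Kcne2, -1.51 for Pde6c and -0.99 for Pde6h. Inner retinal genes also had negative differences, of -1.25 for Tac2, -1.21 for Vip, -1.18 for Ngfr, -1.16 for Cartpt, -0.996 for Calb2, -0.76 for Cabp5, -0.69 for Chrna6, -0.65 for Septin4 and -0.61 for Calb1. Dbp differed by -0.74 and Rasd2 by -0.75. Photoreceptor genes and Kcnj14 had positive differences, with a larger fall in R7E: 0.57 for Prom1, 0.77 for Guca1b, 0.81 for Kcnj14 and 1.07 for Cabp4. Olfm1, a secreted olfactomedin, differed by -1.95, with a difference of -0.54 in R6 and of 1.41 in R7E; the R6 call was lost without any 1 of 6 arrays, and its other probe sets, at -0.33 and -0.55, were not called. Ccn4, a matricellular protein, differed by 1.1, with -0.81 in R6 and -1.91 in R7E. Edn2, an endothelin, differed by 1.72, and Dym, a Golgi protein, by 1.53. For Edn2 the mean signal was 261 ± 93.8 (SD, n = 6) in R7N, 114 in R7E, 67.3 in R6 and 45.1 in WT. Its R6 difference of 0.60 was not called (limma, adjusted p = 0.427). The Edn2 difference of effects was lost without any 1 R6 array and without WT array 1, 2 or 4. For Dym the mean signal was 438 in R7N and 132 to 145 in the other 3 groups at 9 weeks, so the R7N arrays alone stand apart. The calls for Cabp4, Cabp5, Calb1, Ccn4, Chrna6, Edn2, Guca1b, Kcnj14, Prom1, Rasd2 and Vip were lost under at least 1 alternative setting.

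In 10 of 220 sets of 4 arrays checked, 4.55%, a single array stood far from its group, where chance gives about 1 in 20. These were the Pde6h signal of 718.8 on WT array 2, Samd11 at 499.7 on R6 array 1, Nrl at 4238.9 on WT array 1, Prdm1 at 141.5 on R6 array 1 and Prkca at 147.7 on WT array 4. The others were Isl1 at 247.7 on R6 array 2, Tfap2a at 155.8 on WT array 3, Npy at 161.1 on WT array 4, Fabp7 at 3.0 on WT array 4 and Gpx3 at 251.9 on WT array 2. Of these 10 values 3 fell on WT array 4, an array high in lens transcripts.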

How the results depend on the processing

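Of 98 named genes called in R6 against WT, 57 remained called whichever single array was left out and 51 under all settings that tested them, and no probe set called in both fits changed sign. Leaving out 1 array gave 365 to 459 calls, 105 to 153 higher and 260 to 306 lower, with 73 to 98 for the difference of effects, 28 to 53 genes higher in both models and 93 to 103 lower in both; the lowest count for the difference came without WT array 4. Without R6 array 3 and WT array 4 there were 310 calls, 77 higher and 233 lower, 61 for the difference, 24 genes higher in both and 79 lower in both. With labelled males only these were 314, 79 and 235, with 68 for the difference and 21 genes higher in both. Both settings use fewer arrays. A fit of only the groups compared gave 109 higher and 28 genes higher in both. The difference of effects gave 110 calls, 68 with median centring and 73 with no filter. With a replicate block it gave 64, and R6 against WT gave 482 calls, 436 of them shared. Deviations of same-numbered R6 and WT arrays had correlations of -0.03 to 0.06, and those of other pairings ran from -0.23 to 0.25. The arrays numbered 1 are both labelled female. Whether a number stands for a shared batch was not tested. Gnat1 turned from -0.31 to 0.054 with quantile normalization, and the cause was not tested. The share of calls that were lower was 67.6%, and 63.9% (median centring, which moved the median of all probe sets to 0.05) to 75.2% in the other settings.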

Other observations

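Few energy metabolism genes were called in R6. Of 33 oxidative phosphorylation genes 1 rose, Ndufa9, a subunit of complex I (0.31 ± 0.08, adjusted p = 0.0127), and 0 fell, with a median of 0.11 and a positive difference in 27; 12 of the 33 were higher in R7E than in R7N. Of 18 glycolysis genes 1 fell in R6, Aldoc, an aldolase (-0.35 ± 0.08, adjusted p = 0.0075), while 8 were lower in R7E. Both calls were lost without at least 1 single array. The glycolysis list had a median of -0.15, with a negative difference in 15 genes and a positive one in 3. Its summed signal was 21099 to 24759 on the R6 arrays and 24931 to 28304 on the WT arrays. Of 17 cholesterol synthesis genes, 14 ribosomal protein genes and 11 immediate early genes, 0 were called in R6 by limma, and 0, 0 and 2 had an unadjusted p under 0.05.

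The progenitor and Notch list had 2 rises, Fabp7 and Stat3, and 2 falls, Pax6 and Hey1, a Notch target, among 18 genes. Hey1 differed by -0.66 ± 0.19 (adjusted p = 0.0471), a call lost when any 1 of 6 arrays was left out. Hmgn1, a nucleosome-binding protein, was the 1 called member of 14 histone and chromatin genes (-0.34 ± 0.09, adjusted p = 0.0281), a call lost when any 1 of 5 arrays was left out and under 6 other settings, and its other probe sets, at -0.59 and -0.33, were not called. Atxn7, which is not altered by label in R6 or WT, had signals of 41.1, 32.7, 27.2 and 28.4 in R6 and 27.7, 4.6, 19.9 and 19.1 in WT (1.11 ± 0.33, adjusted p = 0.0527), most of them near or under the filter level of 26.9.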
